A study of Mus musculus with 17 samples.

Results

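A set of 10 genes from a single signalling route was followed in endothelial cells of mouse bone marrow: the SMADs that carry bone morphogenetic protein (BMP) signals, the inhibitory SMADs, and 4 direct targets of the BMP9 and ALK1 pathway. The 10 members were taken by symbol: Smad1, Smad5, Smad9, Smad4, Smad6, Smad7, Id1, Id2, Id3 and Atoh8. They are 10 of the 49585 genes in the count tables, and each was matched to a single identifier.

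BMP9 and BMP10 in blood bind a complex of the type I receptor ALK1 (gene Acvrl1) and a type II receptor on endothelial cells, and Endoglin, the product of Eng, is the co-receptor that presents the ligand. The active receptor phosphorylates SMAD1, SMAD5 and SMAD9, these join SMAD4, and the complex enters the nucleus and binds DNA at target genes. Among the targets are the ID genes, whose products bind basic helix-loop-helix transcription factors and keep them off DNA, and SMAD6 and SMAD7, which feed back on the receptors and on SMAD activation. Loss of this route in people gives hereditary haemorrhagic telangiectasia, a disease of malformed vessels.

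The study compared wild-type (WT) animals with animals in which Eng was deleted in endothelium (KO), at 2 and 4 weeks after tamoxifen. In the KO line a tamoxifen-inducible Cre recombinase, CreERT2, is driven by the endothelial Cdh5 promoter, and the floxed Eng allele (Eng f/f) has loxP sites around exons 5 and 6. All 17 libraries carry the tamoxifen label, with treatment at an age of 8 weeks, and the Cre status of the WT animals is not stated. Cells freed by crushing the long bones were sorted as CD45-, Ter119-, CD31+ and Sca1+ after red cell lysis, although the design text gives this gate without Sca1. There were 4 WT and 4 KO libraries at 2 weeks (2 female and 2 male in each), 5 WT libraries at 4 weeks (2 female, 3 male) and 4 KO libraries at 4 weeks (1 female, 3 male). Libraries are named here by sex and number (f1, m2), and 1 WT library of 4 weeks has no number (f). The labels do not say that each library came from a separate animal, so p-values measure the spread between these libraries.

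Promoter stretches are shown for 4 of the 5 members whose window near the start held letters that SMAD complexes of the BMP branch are known to bind, so that the letters can be seen in place. Smad5, the other of these, has several annotated starts and is described without its sequence. The windows came from RefSeq on GRCm38.p6, 300 bases each with 250 before the annotated start, and 7 of the 10 members matched. Id1, Smad4 and Smad7 had no entry in the set of windows used here, which does not mean that RefSeq lacks them. Letters searched on both strands were GGCGCC and GGAGCC, known from BMP-responsive elements, and CAGAC, an extended form of the general SMAD box. None of them contains another, and GGCGCC reads the same on both strands. Capitals mark matches, on either strand, and each sequence reads 5′ to 3′ on the gene's own strand.
Smad6, chr9:64022060-64022309, minus strand: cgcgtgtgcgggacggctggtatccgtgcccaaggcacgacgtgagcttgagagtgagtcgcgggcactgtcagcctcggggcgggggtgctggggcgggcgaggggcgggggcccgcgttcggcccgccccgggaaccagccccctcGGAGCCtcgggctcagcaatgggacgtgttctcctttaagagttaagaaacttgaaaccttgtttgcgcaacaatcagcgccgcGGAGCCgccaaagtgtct
Smad9, chr3:54755332-54755581, plus strand: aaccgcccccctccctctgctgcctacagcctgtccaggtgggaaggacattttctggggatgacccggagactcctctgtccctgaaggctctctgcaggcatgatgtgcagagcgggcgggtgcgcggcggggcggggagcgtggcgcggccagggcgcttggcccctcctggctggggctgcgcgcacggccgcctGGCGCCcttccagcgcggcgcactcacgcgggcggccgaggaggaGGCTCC
Id2, chr12:25096254-25096342, minus strand: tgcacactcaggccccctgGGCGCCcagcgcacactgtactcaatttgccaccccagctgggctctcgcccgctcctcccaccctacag
Id3, chr4:136143635-136143659, plus strand: GGCTCCgctgtcctcggcgtCAGAC

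The Smad6 window held GGAGCC at 102 and at 18 bases before the start. The Smad9 window held GGCGCC at 51 bases before the start and GGAGCC at 6 before and, outside the printed stretch, 19 after it. In Id2, GGCGCC lay 231 bases and, outside the printed stretch, GGAGCC 88 bases before the start. In Id3, GGAGCC lay 187 bases and CAGAC 167 and, outside the printed stretch, 68 bases before the start. The Id3 stretch lies in an exon of an annotated transcript that begins farther upstream, and the Id2 stretch was kept to its non-exonic bases, with 161 of its 250 upstream bases exonic. Smad5 has 3 annotated starts with windows, of which 2 held GGCGCC and the other held GGAGCC and CAGAC, and the windows of Atoh8 and Smad1 held none of these letters. Of all 32851 RefSeq windows of this length, 11.9% held GGCGCC, 30.8% held GGAGCC and 49.6% held CAGAC. A match is a description of the letters and not a bound site.

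Before the members, the libraries and the deletion were checked. Total counts ran from 20477400 to 40882715 per library. The time points differed in library quality: 10886 to 13583 genes were detected at 2 weeks against 15996 to 21235 at 4 weeks, and mitochondrially encoded genes took 22.2% to 29.5% of counts against 4.66% to 8.99%. Markers of endothelium were present in every library, with a summed level of 4045 to 5469 CPM (counts scaled to a library total of 1000000) at 2 weeks and 8061 to 10437 at 4 weeks over 8 genes, none of them at 0. Eng (ENSMUSG00000026814, chromosome 2, 32646595 to 32682669) stood at 1116, 1083, 705 and 1307 CPM in WT at 2 weeks and at 225, 266, 347 and 259 CPM in KO. At 4 weeks it stood at 2594, 2633, 2399.8, 2735 and 2574 CPM in WT and at 873 (f2), 322 (m1), 1647 (m2) and 274 (m3) CPM in KO. No KO library reached the lowest WT library of the same time point, and the KO library m2 of 4 weeks kept the most Eng, at 63.7% of the WT mean. The log2 fold change of Eng in edgeR's quasi-likelihood test was -1.96 (SE 0.25, adjusted p = 0.612) at 2 weeks and -1.72 (SE 0.50, adjusted p = 1) at 4 weeks, and its mean over both times was -1.83 (SE 0.31, adjusted p = 0.0378). The mean-effect call of Eng was lost with limma voom, an alternative fit. Part of the Eng reads may come from outside the deleted exons, and an exon of Fpgs overlaps Eng by 61 bases.

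Levels were compared between members only per length, as CPM per kilobase of merged exons. Id3 and Id1 were the most abundant members in all 4 groups, and Id2 came next. In WT at 4 weeks Id3 was at 1251 ± 99.98 CPM per kilobase and Id1 at 1227 ± 97.2 (SD, n = 5), and these 2 did not separate. Id2 followed at 98.2 ± 25.7, Atoh8 at 17.9 ± 0.449 and Smad7 at 11.9 ± 3.13 CPM per kilobase (SD, n = 5), where the ranges of Id2 and Atoh8, and of Atoh8 and Smad7, did not overlap. Smad5, Smad6, Smad4 and Smad1 lay between 6.40 and 7.07 CPM per kilobase as group means, and neighbours in this order overlapped. Smad9 closed the order at 0.0287 CPM per kilobase. In KO at 4 weeks the first 5 places were the same, from Id3 at 1187 ± 67.5 to Smad7 at 9.96 ± 2.86 CPM per kilobase (SD, n = 4).

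**Figure D1:**
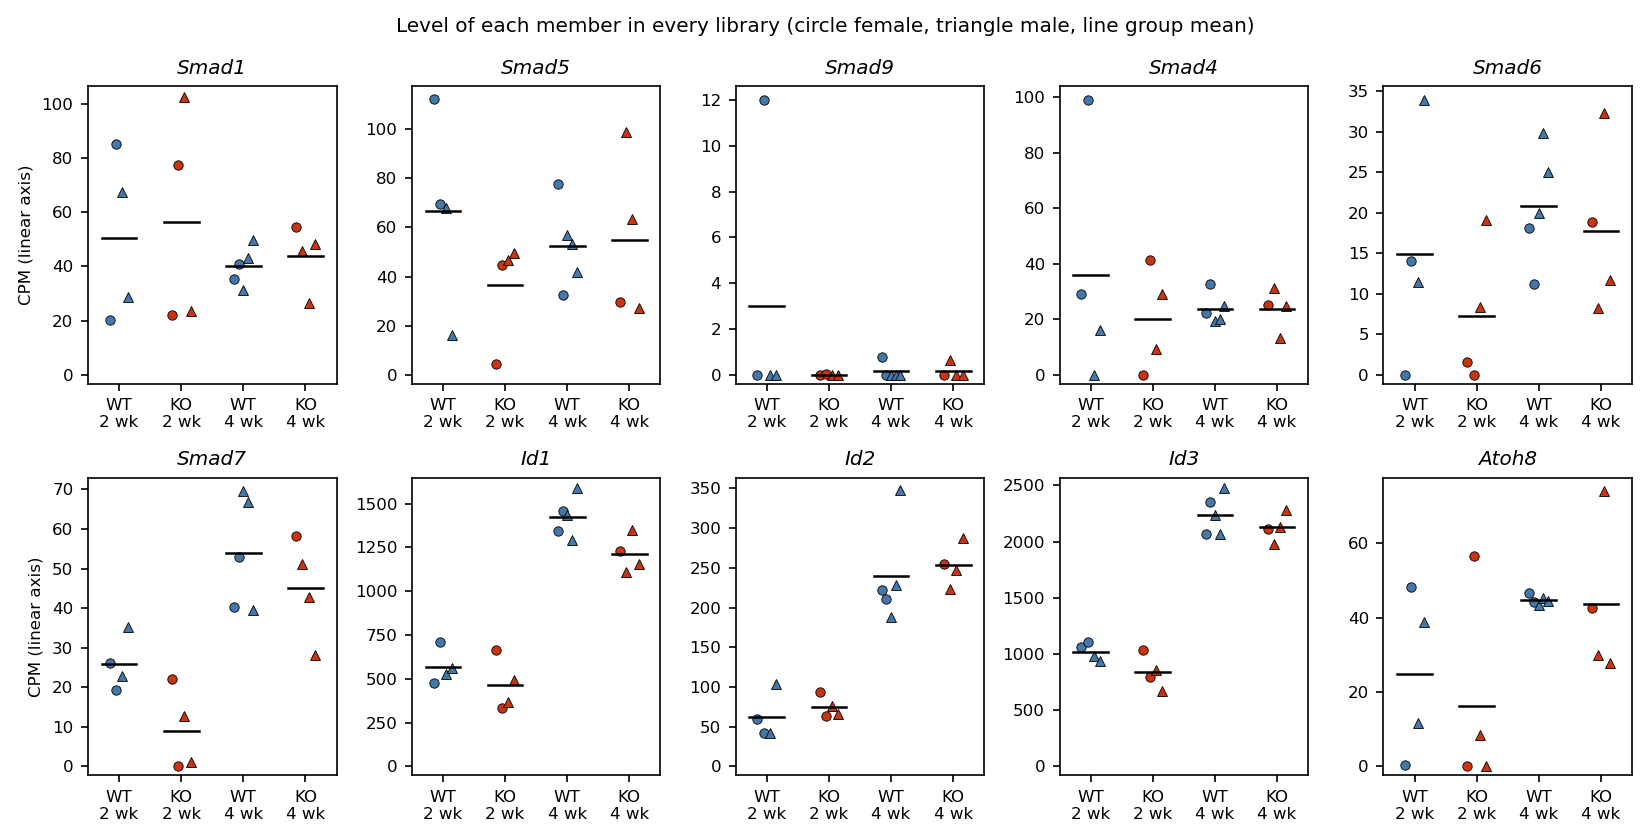
CPM (linear axes, 1 scale per gene) of each member in each of the 17 libraries, with blue for WT, red for KO, circles for females, triangles for males and a line at the group mean. All 4-week libraries of Id1, Id2 and Id3 sit above the 2-week libraries, the SMADs and Atoh8 scatter widely at 2 weeks with several libraries at or near 0, and Smad9 is near 0 in all but 1 library.

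Member counts were unsteady at 2 weeks. Of the 80 values of 10 members in 8 libraries, 13 were at 3 counts or fewer, of which 11 were at 0. At 4 weeks 7 of 90 values were at 0, all of them of Smad9. Whether a member at 0 was absent from the cells or not captured cannot be told apart in these counts. In bulk samples, fewer cells of a type and less RNA per cell cannot be told apart either.

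KO was compared with WT within each time point, which asks whether the SMADs and their targets follow the loss of the co-receptor. No member passed the adjusted threshold of 0.05 at either time in edgeR's quasi-likelihood test with Benjamini-Hochberg adjustment over all genes. At 2 weeks 9 members could be tested, 0 passed, and 0% of the 10477 genes tested passed. At an unadjusted p under 0.05 there was 1 member, Id3, against 2.63% of all genes. Of the 9, 7 had a log2 fold change below 0, as did 53.1% of all genes, and their median was -0.30 against -0.06 over all genes tested. At 4 weeks the same 9 were tested, 0 passed against 0% of 15209 genes, and 0 had an unadjusted p under 0.05 against 2.77% of all genes. There 6 of 9 were below 0, against 48.7% of all genes, the median was -0.03 against 0.01 over all genes, and 8 of the 9 lay within 1 SE of 0. For no member did the CPM ranges of the genotypes fail to overlap, which 3.36% of the genes tested showed at 2 weeks and 1.19% at 4 weeks. DESeq2 called 149 genes at 2 weeks and 17 at 4 weeks and limma voom called 12 and 0, with no member among them.

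**Figure D2:**
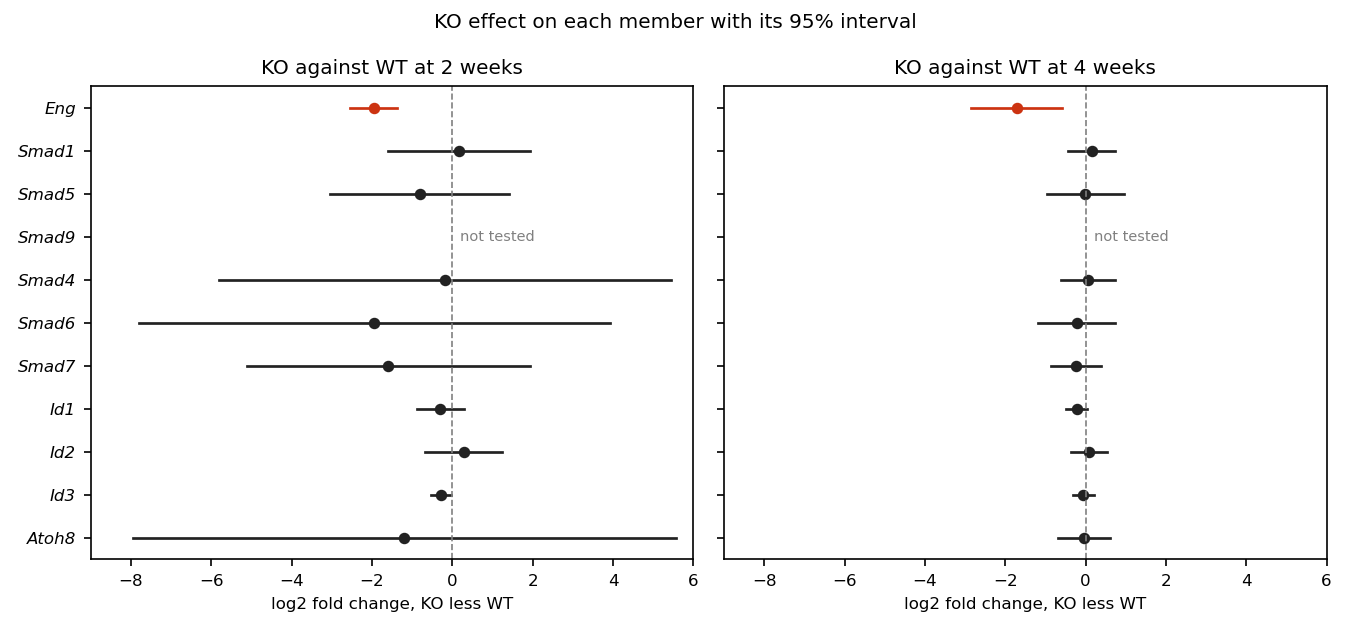
Log2 fold change of KO against WT for the 9 tested members and Eng at 2 and 4 weeks, with 95% intervals as lines from edgeR's quasi-likelihood fit and Eng in red. Intervals are far wider at 2 weeks than at 4 weeks for the low members, and only that of Id3 at 2 weeks, among members, leaves out 0.

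Among the receptor-activated SMADs of the BMP branch, the group means of Smad1 lay close together. This gene (ENSMUSG00000031681, chromosome 8, 79338395 to 79399518) stood at 20.2, 85.2, 67.5 and 28.5 CPM in WT and at 21.9, 77.5, 102 and 23.4 CPM in KO at 2 weeks. The 4-week values were 35.5, 40.8, 31.2, 43.2 and 49.7 CPM in WT and 54.4, 45.6, 26.7 and 48.1 CPM in KO. The genotypes overlapped at both times, with close values at 4 weeks. At 2 weeks the 2 low libraries were f1 and m3 and the 2 high ones f4 and m2 in both genotypes. Leaving out 1 library thus also leaves its same-numbered library without a match, and what the numbers mark is not stated. In edgeR's quasi-likelihood test the log2 fold change was 0.17 (SE 0.74) at 2 weeks and 0.15 (SE 0.26) at 4 weeks, the latter a fold of 1.11 with a 95% interval of 0.742 to 1.66. The 2-week value turned below 0 without KO f4, KO m2, WT f1 or WT m3, 4 of the 8 libraries left out in turn, and ran from -0.41 (without KO m2) to 0.74 (without WT f4). The 4-week value became -0.023 without KO f2 and was above 0 without any other library.

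Smad5 (ENSMUSG00000021540, chromosome 13, 56703010 to 56742377) ranged from 16.3 to 112 CPM in WT and from 4.34 to 49.7 CPM in KO at 2 weeks, and from 32.3 to 77.9 CPM in WT and 27.2 to 99.0 CPM in KO at 4 weeks. The low 2-week KO value was that of f1 alone, and the other 3 KO libraries sat between 44.6 and 49.7 CPM. On the log2 scale KO differed from WT by -0.82 (SE 0.94) at 2 weeks and by -0.0024 (SE 0.42) at 4 weeks, where the 95% interval of the fold was 0.518 to 1.92. Without KO f1 the 2-week value became -0.22, and without WT m3, the low WT library, it became -1.34. The 4-week value turned above 0 without KO f2, KO m3 or WT f, and ran from -0.39 (without KO m1) to 0.33 (without KO f2).

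Smad9 (ENSMUSG00000027796, chromosome 3, 54755582 to 54801257) was barely detected. It had 491 counts in the WT library f4 of 2 weeks (12.0 CPM), 26 counts in WT f and 17 in KO m1 of 4 weeks, 1 count in KO f4 of 2 weeks, and 0 in all other libraries. A count of 0 allows up to 3 counts, which is 0.0734 to 0.147 CPM at these depths. It passed the low-count filter in no comparison and was not tested, and no fold is given because single libraries set its group means.

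Smad4 (ENSMUSG00000024515, on chromosome 18), the common partner of all receptor-activated SMADs, ranged from 0.0307 to 99.0 CPM in WT and from 0 to 41.5 CPM in KO at 2 weeks, and from 19.5 to 32.6 CPM in WT and 13.4 to 31.3 CPM in KO at 4 weeks. The genotypes overlapped at both times. Its log2 fold change was -0.19 (SE 2.37) at 2 weeks, a fold with a 95% interval of 0.0178 to 43.4, and 0.06 (SE 0.30) at 4 weeks, a fold of 1.04 with an interval of 0.650 to 1.67. Its direction turned at both times when 1 library was left out. The 2-week value became 0.56 without KO f1 and 0.49 without WT f4, and was -0.94 without WT m2. The 4-week value became -0.13 without KO m1, -0.0030 without KO m3 and -0.0049 without WT f, and was 0.23 without KO m2.

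The inhibitory SMADs had lower fitted levels in KO at both times, without passing the test, and for Smad6 the direction turned at each time when 1 library was left out. Smad6 (ENSMUSG00000036867, chromosome 9, 63953076 to 64022059), which acts mainly on BMP-branch SMADs, stood at 0, 14.1, 11.5 and 34.0 CPM in WT and at 1.57, 0, 8.42 and 19.1 CPM in KO at 2 weeks. At 4 weeks its level was 18.1, 11.2, 20.01, 29.9 and 25.1 CPM in WT and 18.9 (f2), 8.21 (m1), 32.3 (m2) and 11.8 (m3) CPM in KO. The KO values at 4 weeks spread wider than the WT values on both sides. Fitted log2 fold changes were -1.95 (SE 2.47) at 2 weeks and -0.22 (SE 0.42) at 4 weeks, the latter a fold of 0.857 with a 95% interval of 0.442 to 1.66. Without WT f4 the 2-week value became 0.81, and without KO m1 the 4-week value became 0.033.

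Smad7 (ENSMUSG00000025880, on chromosome 18), which blocks both the BMP and the TGF-beta branch, stood at 26.1, 19.2, 22.8 and 35.3 CPM in WT and at 22.2, 0.206, 12.7 and 1.07 CPM in KO at 2 weeks. Values of 4 weeks were 40.2, 53.0, 69.5, 66.8 and 39.6 CPM in WT and 58.1, 51.2, 42.7 and 28.1 CPM in KO. At 2 weeks 3 of 4 KO libraries lay below every WT library, while f1 lay among them. Its log2 fold change was -1.59 (SE 1.49) at 2 weeks and -0.24 (SE 0.28) at 4 weeks, and the 95% intervals of the fold ran from 0.0289 to 3.80 and from 0.546 to 1.305. With 1 library left out, the 2-week value ran from -3.42 (without KO f1) to -1.14 (without KO m3), and the 4-week value from -0.52 (without KO f2) to -0.081 (without KO m3). With both times in 1 fit the mean KO effect on Smad7 was -0.91 (SE 0.63), unadjusted p = 0.170 and adjusted p = 0.830 in edgeR's quasi-likelihood test. It became -1.46 without KO f1 of 2 weeks.

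Id1 (ENSMUSG00000042745, chromosome 2, 152736251 to 152737410), an early and widely used readout of BMP signalling in endothelium, had lower means in KO at both times and did not pass the test. It stood at 478, 708, 528 and 564 CPM in WT and at 666, 332, 366 and 493 CPM in KO at 2 weeks. At 4 weeks it stood at 1346, 1457, 1434, 1293 and 1587 CPM in WT and at 1228 (f2), 1109 (m1), 1352 (m2) and 1153 (m3) CPM in KO. At 4 weeks 3 of 4 KO libraries lay below every WT library, and m2, the KO library with the most Eng, lay inside the WT range. The log2 fold change was -0.30 (SE 0.24) at 2 weeks, unadjusted p = 0.263, and -0.22 (SE 0.11) at 4 weeks, unadjusted p = 0.0860, and the adjusted p in edgeR's quasi-likelihood test was 1 at both. The 4-week fold was 0.858 with a 95% interval of 0.717 to 1.03. With 1 library left out, the 2-week value ran from -0.51 (without KO f1) to -0.14 (without KO f4), and it was -0.19 without WT f4 and -0.20 without KO m2.

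Id3 (ENSMUSG00000007872, chromosome 4, 136143497 to 136145755) stood at 1058, 1108, 982 and 938 CPM in WT and at 1038, 793, 859.9 and 671 CPM in KO at 2 weeks. The KO libraries f4, m2 and m3 lay below every WT library and f1 lay inside the WT range. At 4 weeks the ranges overlapped in part, with KO m1 below and WT f3 and m3 above all libraries of the other genotype, at 2069, 2351, 2232, 2068 and 2479 CPM in WT against 2113, 1982, 2133 and 2277 CPM in KO. The log2 fold change was -0.29 (SE 0.10) at 2 weeks, a fold of 0.820 with a 95% interval of 0.691 to 0.973, unadjusted p = 0.0287 and adjusted p = 1 in edgeR's quasi-likelihood test. At 4 weeks it was -0.06 (SE 0.12), with a 95% interval of the fold of 0.798 to 1.15.

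Id2 (ENSMUSG00000020644, chromosome 12, 25093799 to 25097140) had higher means in KO, unlike Id1 and Id3, and did not pass the test either. It stood at 59.3, 42.0, 42.6 and 103 CPM in WT and at 94.0, 64.0, 76.5 and 65.4 CPM in KO at 2 weeks. The libraries of 4 weeks held 222, 210.4, 188, 228 and 348 CPM in WT and 255, 224, 247 and 288 CPM in KO. WT libraries held both the lowest and the highest value at each time. Its log2 fold change was 0.28 (SE 0.41) at 2 weeks and 0.08 (SE 0.20) at 4 weeks, the latter a fold of 1.06 with a 95% interval of 0.778 to 1.44. The 2-week value became 0.69 without WT m3, the highest WT library, and 0.11 to 0.12 without WT m2, KO f1 or WT f4. The 4-week value became -0.017 without WT m1 and 0.29 without WT m3.

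Atoh8 (ENSMUSG00000037621, chromosome 6, 72206177 to 72235577) encodes a basic helix-loop-helix factor induced by BMP9 in endothelium. It stood at 0.290, 48.2, 11.7 and 38.8 CPM in WT and at 0, 56.7, 8.38 and 0 CPM in KO at 2 weeks. At 4 weeks it stood at 46.5, 44.2, 43.5, 45.2 and 44.6 CPM in WT and at 42.7 (f2), 30.0 (m1), 74.0 (m2) and 27.8 (m3) CPM in KO. The 5 WT libraries were almost equal, and the 4 KO libraries lay on both sides of them, 3 below and 1 above. The 4-week group means ± SD were 44.8 ± 1.13 CPM over the 5 WT libraries and 43.6 ± 21.3 CPM over the 4 KO libraries, with a log2 fold change of -0.03 (SE 0.29) and a 95% interval of the fold of 0.625 to 1.54. That value became -0.39 without KO m2, and 0.10 and 0.11 without KO m1 and KO m3. At 2 weeks the log2 fold change was -1.19 (SE 2.85), and it ran from -4.18 (without KO f4) to -0.43 (without KO m3) with 1 library left out and to -4.66 with limma voom.

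The evenness of Atoh8 in WT and its spread in KO were set beside all genes tested at 4 weeks, after the values had been seen. The coefficient of variation of CPM was 2.51% in WT and 48.8% in KO. A WT value as small was found in 0.0132% of the 15209 genes, and the ratio of KO to WT, 19.4, was the largest of all of them, against a median of 0.950. The other members had ratios from 0.401 (Id2) to 1.88 (Smad5). No test was made of the difference in spread, and these shares describe the 9 libraries.

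Fitting all 17 libraries together gave the mean KO effect over both times and the change of the effect between them. This fit pools the spread of both times for each gene, although it differed between them. The SD of log2(CPM + 1) of Atoh8 was 2.63 at 2 weeks and 0.413 at 4 weeks. Its SE for the difference, 2.39, was below the 2.85 of the 2-week effect alone. P-values of this fit, those between time points included, may be off for such genes, and their calibration was not tested. For the mean effect 0 members passed the adjusted threshold, against 0.0962% of 13515 genes tested. The smallest p among members was that of Id3, with a log2 fold change of -0.16 (SE 0.07), a fold of 0.896 with a 95% interval of 0.805 to 0.997, unadjusted p = 0.0452 and adjusted p = 0.427 in edgeR's quasi-likelihood test. Id1 had a fold of 0.842 (95% interval 0.698 to 1.02), unadjusted p = 0.0697 and adjusted p = 0.534 in the same edgeR test. An unadjusted p under 0.05 was found in 11.1% of all genes for this contrast. For the difference between the effects at 4 and 2 weeks 0 members passed, against 0.104% of the genes tested, and no member had an unadjusted p under 0.05, against 9.48% of all genes. The closest was Id3, where the 4-week effect was 0.21 above the 2-week effect on the log2 scale (SE 0.14, unadjusted p = 0.162 by edgeR).

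Eng itself differed among the 4 KO libraries of 4 weeks, so the members were read library by library. Relative to the WT mean, Eng was at 63.7% in m2, 33.8% in f2, 12.4% in m1 and 10.6% in m3. Atoh8 stood at 95.3%, 67.0%, 165% and 62.0% of its WT mean in f2, m1, m2 and m3. Smad6 stood at 90.6%, 39.4%, 155% and 56.4%, and Id1 at 86.3%, 77.9%, 94.97% and 81.0%. In all 3 genes m2 was highest, f2 next, and m1 and m3 lowest, as for Eng. The summed erythroid markers took a like order, at 2892 CPM in m2, 2419 in f2, 1398 in m3 and 610 in m1, which is the order of Id1 and Smad6. Library m2 was also the highest KO library in the sums of the stromal (4529 CPM) and dissociation stress (14280 CPM) lists. Most of the stromal sum was Cxcl12 and Rgs5. Of the 6 pairs that 4 libraries form, Atoh8 ordered 6 as Eng did, Smad6 and Id1 5, Smad5 and Smad7 4, Id3 3, and Smad1, Smad4 and Id2 2. Over all genes 3.48% ordered 6 pairs and 16.9% ordered 5 or 6 pairs as Eng did, against 3 of the 9 members. The order was read after the values were seen, no test was made of it over 4 libraries, and it was not found at 2 weeks, where Id1 ordered 1 pair, Smad6 3 and Atoh8 4, while Smad1 ordered 6 (3.37% of all genes did). Whether the levels in m2 go with cells that kept Eng or with these other transcripts was not tested.

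**Figure D3:**
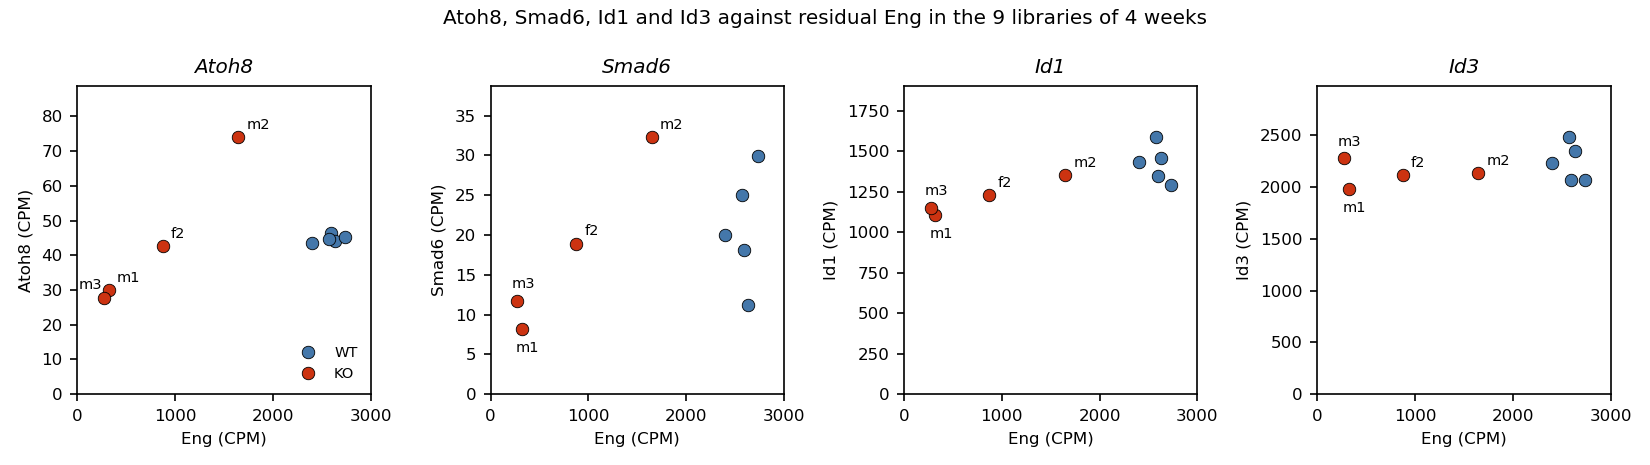
CPM of Atoh8, Smad6, Id1 and Id3 against CPM of Eng in the 9 libraries of 4 weeks, WT and KO in separate colours. Among KO libraries m2 stands highest in Eng, Atoh8, Smad6 and Id1, while Id3 shows no such order.

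Leaving out m2, a choice made after its values were seen, placed all remaining KO libraries below every WT library for Id1 and for Atoh8, and for no other member. Without it 1.26% of the genes tested had KO ranges wholly below WT. The log2 fold change of Atoh8 at 4 weeks became -0.39, unadjusted p = 0.0610, and that of Id1 -0.26, unadjusted p = 0.0723, both with an adjusted p of 1 in edgeR's quasi-likelihood test. Smad6 became -0.62 on the same scale, unadjusted p = 0.177 by edgeR.

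The clearest difference in the members was between the time points. Averaged over genotypes, Id1, Id2 and Id3 were higher at 4 weeks than at 2 weeks and passed the adjusted threshold, which makes 3 of 9 tested members, all in the direction in which 10.8% of the 13515 genes tested passed. Another 4.03% passed as lower at 4 weeks, among them no member. Id2 had a log2 fold change of 1.51 (SE 0.21), a fold of 2.85 with a 95% interval of 2.10 to 3.87, adjusted p = 0.000186 in edgeR's quasi-likelihood test. Id1 had 1.06 (SE 0.13), a fold of 2.08 with an interval of 1.72 to 2.52, adjusted p = 8.8e-05. Id3 had 0.95 (SE 0.07), a fold of 1.93 with an interval of 1.73 to 2.16, adjusted p = 1.33e-06. The median over all genes tested was 0.40 on this scale, below each of the 3. It moved with the processing, to 0.0042 with at least 10 counts in every library and to 1.36 with voom. The voom median was above every value that Id1 (at most 1.147) and Id3 (at most 1.04) took under any alternative.

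In CPM the time points did not overlap for these 3 genes, which 6.24% of all genes showed in this direction. Id1 ran from 332 to 708 CPM at 2 weeks and from 1109 to 1587 at 4 weeks. Id2 ran from 42.0 to 103 and from 188 to 348 CPM, and Id3 from 671 to 1108 and from 1982 to 2479 CPM. Every 4-week library, WT or KO, lay above every 2-week library.

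No SMAD passed in this comparison with edgeR, and Atoh8 did not either. With voom Smad7 (1.99, adjusted p = 0.0420) and Atoh8 (3.43, adjusted p = 0.0430) passed as higher at 4 weeks. Smad7 was higher at 4 weeks by 1.41 (SE 0.64) on the log2 scale, unadjusted p = 0.0453 and adjusted p = 0.174 in edgeR's quasi-likelihood test. Atoh8 was at 1.03 (SE 1.23) and Smad6 at 0.80 (SE 1.09), both with wide spread at 2 weeks. Smad1, at -0.65 (SE 0.38), Smad5, at -0.23 (SE 0.48), and Smad4, at -0.21 (SE 1.07), had signs opposite to the ID genes and did not pass.

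Other lists moved with time as well, and their part in the ID gene result was not tested. All 10 genes of the list for dissociation stress, early response and heat shock genes that rise when tissue is taken apart (Fos, Fosb, Jun, Junb, Egr1, Atf3, Ier2, Dusp1, Hspa1a and Hspa1b), were higher at 4 weeks and passed, with log2 fold changes from 1.41 to 6.09 and a median of 3.5. Their summed level was 946 to 2222 CPM at 2 weeks and 9229 to 14865 CPM at 4 weeks. Of 8 endothelial markers 3 passed as higher, namely Cdh5 at 1.19 (SE 0.10), Pecam1 at 1.18 (SE 0.12) and Emcn at 1.47 (SE 0.17), and the median of the 8 was 0.92. Of the marker lists for other cells, the neutrophil list had 7 of 7 tested genes below 0, with a median of -2.73, and S100a8 at -2.73 (SE 0.56) and Camp at -2.86 (SE 0.88) passed as lower. These are means over the genotypes, and the WT libraries showed little of that difference. Mean S100a8 was 17.3 CPM at 2 weeks and 17.2 CPM at 4 weeks in WT against 615 and 21.6 CPM in KO, and mean Camp was 6.55 and 3.97 CPM in WT against 293 and 6.65 CPM in KO. The summed list ran from 22.6 to 110.0 CPM at 2 weeks and from 19.9 to 100.2 CPM at 4 weeks in WT, and its highest sums were those of KO m2 and m3 of 2 weeks. The erythroid list had 5 of 6 above 0, with a median of 1.41, and Hbb-bs at 1.67 (SE 0.52) passed as higher. Acta2 of the stromal list passed as higher at 1.44 (SE 0.36), and so did Cd68 of the monocyte and macrophage list, for which no fold is given because all 4 KO libraries of 2 weeks were at 0. The log2 differences of Id1 (1.06) and Id3 (0.95) lay below those of the 3 endothelial markers that passed, and that of Id2 (1.51) lay above them. All 8 endothelial markers ran from 0.036 to 1.47. The labels give no collection day, and time after tamoxifen cannot be told apart from whatever else differed between the collections, the number of genes detected and the mitochondrial share included.

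**Figure D4:**
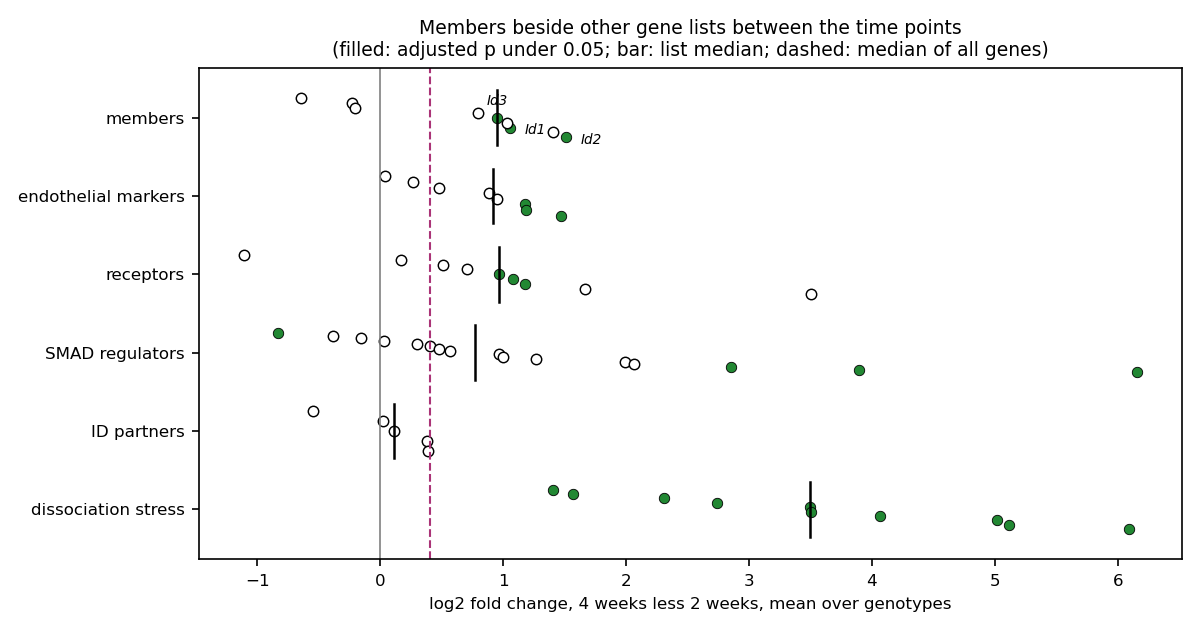
Log2 fold change at 4 weeks against 2 weeks, averaged over genotypes, for the genes of each list, with filled points for genes past the adjusted threshold, a bar at each list's median and a dashed line at the median over all genes tested (0.40). The 3 ID genes lie at 0.95 to 1.51, below most genes of dissociation stress, and the 8 endothelial markers run from 0.036 to 1.47.

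The rest of the pathway was read in the same fits, and no gene of these lists passed the adjusted threshold for KO against WT at 2 or 4 weeks. Of 11 receptors 8 were tested at 2 weeks, 4 above and 4 below 0, and 9 at 4 weeks, 3 above and 6 below, Eng among them. For Acvrl1, the gene of ALK1, the log2 fold changes were 0.01 (SE 0.49) and 0.04 (SE 0.14) at 2 and 4 weeks, and for Bmpr2, the type II receptor of BMP9, 0.73 (SE 0.92) and -0.30 (SE 0.24). Tgfbr2, the type II receptor of TGF-beta, came after Eng in p at 4 weeks, at -0.45 (SE 0.36). Smad2, of the TGF-beta branch, was at -1.92 (SE 2.34) and -0.14 (SE 0.32), and Smad3 was tested only at 4 weeks, at -0.16 (SE 1.22). Of 16 SMAD regulators 14 were tested at 2 weeks, 4 above and 10 below 0, with a median of -1.86. The smallest p was that of Ski, a nuclear repressor of SMAD complexes, at -1.76 (SE 0.70), unadjusted p = 0.0402 by edgeR. Usp15, a ubiquitin protease that acts on receptor-activated SMADs, followed at -2.40 (SE 1.78). At 4 weeks 16 were tested, 7 above and 9 below 0, with a median of -0.04, and Skil at -0.55 (SE 0.34) and Pmepa1 at 0.63 (SE 0.43) had the smallest p-values.

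Genes that BMP9 and ALK1 are known to induce or repress were listed apart from the members. Of 10 further induced genes 5 were tested at 2 weeks, 2 above and 3 below 0, and 8 at 4 weeks, 2 above and 6 below, with a median of -0.21. The smallest p-values at 4 weeks were those of Hey2 at 2.97 (SE 2.07) and Hey1 at 0.35 (SE 0.24), and at 2 weeks those of Hey1 at 0.59 (SE 0.49) and Hes1 at -0.78 (SE 0.9998). Hey2 was near the floor at 4 weeks, at 0 in 3 of 5 WT and 1 of 4 KO libraries and with at most 90 counts. Of 6 genes known to be repressed, 5 were tested at 2 weeks, 4 above and 1 below 0, with a median of 1.28, and 6 at 4 weeks, 5 above and 1 below, with a median of 0.72. At 4 weeks Angpt2, a ligand that opposes TIE2 signalling, had a log2 fold change of 1.52 (SE 0.27), unadjusted p = 0.000398 and adjusted p = 1, the first rank of all genes in edgeR's quasi-likelihood test. Apln, the ligand of the apelin receptor, had 1.13 (SE 0.32), unadjusted p = 0.00712 by edgeR. At 2 weeks Angpt2 was at 3.27 (SE 2.91) and Apln at 3.20 (SE 1.93). These values for repressed genes stand beside an Id1 effect of -0.22 and an Id3 effect of -0.06 in the same libraries.

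Of the helix-loop-helix genes whose products ID proteins bind, all 5 were tested at both times. At 2 weeks 3 were above and 2 below 0, with Tcf12 at -1.79 (SE 0.88) and Tcf3 at 0.80 (SE 0.69) having the smallest p-values. At 4 weeks 1 was above and 4 below, with Tcf3 at -0.43 (SE 0.35) and Tcf12 at -0.18 (SE 0.38) first. Between the time points 0 of these 5 passed, where 10.8% of the 13515 genes tested passed as higher and 4.03% as lower. Of 9 tested receptors 3 passed as higher (Tgfbr2, Acvrl1 and Eng, the last not with voom). So did 3 of 7 further induced genes (Hes1, Lfng and Id4) and 3 of 16 SMAD regulators (Tob1, Bambi and Lemd3), and Fkbp1a passed as lower. Lfng, Id4 and Lemd3 failed the filter at 2 weeks and entered only through the 4-week libraries, so their direction was set in advance. At 2 weeks Id4 and Lemd3 were at 0 in all 4 KO and 3 of 4 WT libraries, and Lfng had at most 17 counts. No difference between lists was tested. The repressed genes and the 2 TGF-beta branch SMADs had 0 that passed.

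Markers of other marrow cells were read beside these results. At 2 weeks the neutrophil list (9 genes) summed to 107 to 4104 CPM in KO and 22.6 to 110.0 CPM in WT, with 0 to 4 of its genes at 0 in KO and 1 to 6 in WT, and all 8 of its tested genes had a log2 fold change above 0. The erythroid list (9 genes) summed to 278 to 1248 CPM in KO and 61.4 to 195 CPM in WT at 2 weeks, and to 610 to 2892 CPM in KO and 157 to 1267 CPM in WT at 4 weeks. At 4 weeks neutrophil sums were 37.3 to 75.4 CPM in KO and 19.9 to 100.2 CPM in WT. The stromal list (7 genes) summed to 1745 to 1972 CPM in KO and 1839 to 3060 CPM in WT at 2 weeks, and to 1408 to 4529 and 1663 to 5322 CPM at 4 weeks. Cxcl12 and Rgs5 made up most of it, with means of 1569 and 853 CPM in KO at 4 weeks. Acta2 was at 228, Lepr at 26.3, Pdgfrb at 16.5 and Col1a1 at 11.7 CPM there. Which cells carried Cxcl12 and Rgs5 was not tested, so the sum is no measure of stromal cells. Lymphoid genes summed to at most 21.4 CPM, megakaryocyte genes to at most 66.5 CPM, and monocyte and macrophage genes to at most 389 CPM, the last in KO at 2 weeks. Without KO m2 and m3, which carried the most neutrophil transcripts, the 2-week log2 fold change was -0.28 for Id3 (unadjusted p = 0.136) and -0.29 for Id1 (unadjusted p = 0.485) by edgeR. The same fit gave 0.25 for Atoh8 and -0.080 for Smad1, both with the sign turned, and 0.60 for Id2, -1.90 for Smad5, -1.61 for Smad4, -3.20 for Smad6 and -1.09 for Smad7. KO m2 and m3 were the 2 male KO libraries of 2 weeks, so this fit set 2 female KO libraries against WT libraries of both sexes. It kept KO f4, whose neutrophil sum of 238 CPM was also above every WT library.

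Endothelial markers themselves did not pass for KO against WT, with 2 of 8 above 0 at 2 weeks and 3 of 8 at 4 weeks. The smallest p was that of Tie1, a receptor of the angiopoietin system, at -0.81 (SE 0.31) and -0.52 (SE 0.19), followed by Tek, the gene of TIE2, at -0.48 (SE 0.46) and -0.81 (SE 0.58) at 2 and 4 weeks.

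The spread of each member was set beside the 200 genes nearest in mean level. At 4 weeks Id1 and Id3 were steadier than such genes, with an SD of log2(CPM + 1) of 0.118 and 0.102 against a median of 0.238 for both. Smad5 was less steady, at 0.674 against 0.337. At 2 weeks Id1 was on the other side of its neighbours, with an SD of 0.363 against 0.2995, and Id3 was at 0.1996 against 0.267. The 2-week SD of Smad4 was 2.62 against 1.87 and that of Atoh8 2.63 against 1.91. Smad7 and Id2 were steadier than their neighbours at 2 weeks, at 1.48 against 2.04 and 0.460 against 0.766.

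For Id1 and Smad6 the genes most like them across the 9 libraries of 4 weeks were sought by Pearson's r of log2(CPM + 1), as deviations from the genotype mean, among 8228 genes. For Id1 these were Mrps24, at r = 0.961, Wdr20, Bscl2, Smc3 and Gm45552, at 0.934. Across the 8 libraries of 2 weeks the same 5 had r from -0.338 to 0.640. For Smad6 they were Diaph2, at 0.965, Myof, Tomm20, Thap6 and Rps14, at 0.931, and at 2 weeks they had r from -0.399 to 0.657. Among members Id1 was most like Id3, at 0.670, and Atoh8, at 0.642. Smad6 was most like Atoh8, at 0.765, and ran opposite to Smad4, at -0.866. At 2 weeks these member pairs had r of 0.430 for Id1 with Id3, -0.351 for Id1 with Atoh8, 0.163 for Smad6 with Atoh8 and -0.031 for Smad6 with Smad4. These correlations describe 9 libraries that share a sort and a depth range, and each listed gene is the best of a search over all 8228.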

How the data were processed

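RNA of sorted bone marrow endothelial cells was sequenced with SmartSeq2, per the labels' protocols, which amplifies polyadenylated RNA without molecular identifiers, so floors cover counting error only. The authors deposited raw counts per gene, 1 table for each of 17 libraries, with whole numbers and no normalization that the values show. Cutadapt, STAR and HTSeq 0.6.1p1 and the builds GRCm38 and mm10 are named per the submitters' processing notes. The annotation release and the strand setting are not given in the sources used here. Symbols and positions came from GENCODE M21 on GRCm38, which matched 49326 of 49585 identifiers. Total counts were 26705337 to 40882715 at 2 weeks and 20477400 to 33726630 at 4 weeks, and 3 counts were taken as the floor.

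Counts were fitted with edgeR 4.0.16 (quasi-likelihood, robust, TMM, filterByExpr on genotype, sex as a term) in R 4.3.3. Each time point was fitted alone, and all 17 libraries together for the mean effect, the difference of effects and time. P-values were adjusted by Benjamini-Hochberg over all genes tested, with a threshold of 0.05, and the 95% intervals use the fit's own standard error and degrees of freedom. The edgeR steps were tested on simulated data. Same-numbered libraries deviated from their group means with r from -0.0218 to 0.0439 at 2 weeks and from 0.0184 to 0.262 at 4 weeks. Among males of 4 weeks this exceeded the best r with another KO library for m3 (0.262 against -0.133). It did so narrowly for m1 (0.0951 against 0.0914) and not for m2 (0.0184 against 0.0273). At 2 weeks it did so for f1 only. The labels do not say what a number marks, so the main fit had no block and pairing is left undecided.

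The members and gene lists were chosen with earlier results of these data known. All members are named, and from other lists the genes past the threshold or the 2 with the smallest p-values at a time point, with Acvrl1, Bmpr2 and the TGF-beta branch SMADs named beyond that rule. Lists of other cells and of dissociation stress are given for KO against WT by sums or counts, and only their genes past the threshold are named. Likeness was sought among genes with at least 10 CPM in each 4-week group. Alternatives were DESeq2 1.42.0 and its size factors, upper quartile scaling, voom with sample weights (limma 3.58.1), no filter, at least 10 counts in every library, no sex term, a joint fit, a replicate block, males only, libraries left out, and CPM without mitochondrial counts. The order of KO libraries by Eng, the spread by genotype and the count without KO m2 were added after the values were seen.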

Additional observations from a re-analysis of the deposited data

Results flagged for a closer look

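In 7 of 44 groups of 4 or 5 libraries, over the 10 members and Eng, 1 library stood apart from the others by Dixon's test, which chance meets in about 1 in 20 groups of continuous values. For 4 of these, all of Smad9, the other libraries of the group were at 0, so that any count above 0 meets the test and the chance rate does not apply: 12.0 CPM in WT f4 and 0.0295 CPM in KO f4 at 2 weeks, 0.771 CPM in WT f and 0.634 CPM in KO m1 at 4 weeks. Atoh8 was at 56.7 CPM in KO f4 of 2 weeks, where the other KO libraries were at 8.38 CPM or at 0. Smad5 was at 4.34 CPM in KO f1 of 2 weeks, below 44.6 to 49.7 CPM in the others. Id2 was at 348 CPM in WT m3 of 4 weeks, above 188 to 228 CPM in the other WT libraries. The difference of the KO effects between the time points passed the test for 0 members.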

How the results depend on the processing

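The time calls of Id1, Id2 and Id3 were kept under every alternative and every left-out library, with log2 fold changes of 0.99 to 1.147, 1.41 to 1.76 and 0.91 to 1.04. No member passed for KO against WT, for the mean effect or for the difference under any alternative. With voom, Atoh8 (3.43, adjusted p = 0.0430) and Smad7 (1.99, adjusted p = 0.0420) passed between time points (adjusted p over all alternatives from 0.0430 to 0.790 and from 0.0420 to 0.315), and Eng lost its mean-effect and time calls (-1.94 and 0.89).

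Counts of called genes moved. Genes called between time points (2000, 1455 of them higher, with a median of all genes of 0.40) became 1291 with at least 10 counts in every library (630 higher, median 0.0042), 3556 with DESeq2 (2723 higher, median 0.45), 3806 with voom (3233 higher, median 1.36) and 3158 without a filter (2701 higher, median 0.87), and ran from 1312 (without WT f of 4 weeks) to 2625. KO against WT (0 at both times) became 149 with DESeq2, 12 with voom and 33 in the joint fit at 2 weeks, and 17 with DESeq2 at 4 weeks. The difference of effects (14) became 0 with at least 10 counts, 929 with DESeq2, 9 with voom and 6 without a filter, and ran from 7 to 52 (without KO m2 of 2 weeks) with 1 library left out. The mean effect (13) became 3, 1004 with DESeq2, 8 without a filter and 30 without sex, and ran from 5 to 62 (without KO m2 of 2 weeks).

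Signs also turned, none in a called result. At 4 weeks these were Smad5 in the joint fit (0.039), with upper quartile scaling (0.025), without sex (0.068) and in males (0.32), Atoh8 in the joint fit (0.056) and with upper quartile scaling (0.0046), Smad4 with voom (-0.046) and without sex (-0.0093), and Smad1 (-0.036) and Id2 (-0.0090) in males. Without KO m2 and m3 at 2 weeks Atoh8 became 0.25 and Smad1 -0.080. With voom the difference of effects became 0.16 for Smad1 and -0.17 for Eng, and Smad4 between time points 1.33. With 1 library left out, the 2-week effect ran from -0.41 to 0.74 for Smad1, -0.94 to 0.56 for Smad4 and -2.51 to 0.81 for Smad6. The 4-week effect ran from -0.39 to 0.11 for Atoh8, -0.017 to 0.29 for Id2, -0.023 to 0.33 for Smad1, -0.13 to 0.23 for Smad4, -0.39 to 0.33 for Smad5 and -0.62 to 0.033 for Smad6. The difference ran from -0.070 to 0.24 for Id1, -0.50 to 0.51 for Smad1, -0.40 to 1.15 for Smad4 and -0.49 to 0.47 for Eng. The mean effect ran from -0.092 to 0.38 for Smad1 and -0.46 to 0.29 for Smad4, and Smad4 between time points from -0.53 to 0.23. The cause of these changes was not tested.

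With the number as a replicate block, Id3 at 2 weeks was at -0.29 (unadjusted p = 0.0375 by edgeR), and 0 genes were called at 2 weeks and, in males with a block, at 4 weeks. In that paired fit Smad1 at 4 weeks was at -0.060 and Smad5 at 0.15. The block moved no count of calls. Among members, Atoh8 (SE 2.85), Smad6 (SE 2.47) and Smad4 (SE 2.37) were least precise at 2 weeks. Smad4 ran from 0 to 4049 counts there, with a 95% interval of its fold of 0.0178 to 43.4, and the interval of Atoh8 was 0.00406 to 47.3. Total counts were 26705337 to 40882715 at 2 weeks against 20477400 to 33726630 at 4 weeks.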

Other observations

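Id2 held the lowest and the highest WT level at each time point within WT alone, 42.0 and 103 CPM at 2 weeks and 188 and 348 CPM at 4 weeks, so that its 8 KO libraries fell inside the WT ranges. Leaving mitochondrially encoded genes out of the totals raised the 2-week levels most: Id1 in WT became 759 CPM at 2 weeks and 1526 CPM at 4 weeks, from 569 and 1423 CPM with all counts, and Id3 in WT became 1363 and 2402 CPM, from 1021 and 2239.9 CPM. The order of the time points stayed for both.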
